A study of Rattus norvegicus with 12 samples.

Results

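Blood vessels of the dorsal root ganglion were followed here through 9 marker genes, 7 of endothelial cells (Tie1, Tek, Kdr, Flt1, Pecam1, Eng and Vwf) and 2 of the mural cells that wrap small vessels, Rgs5 and Pdgfrb. The members are all array probe sets annotated to these genes. Of the 9 genes, 8 were measured, by 10 of the 15923 probe sets: Flt1 by 3 and the other 7 genes by 1 each. No probe set was named to Tek by the annotation used here, so Tek was not analysed here. The 8 measured genes, 6 endothelial and 2 mural, are among 10411 genes with their own probe set.

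The series profiled the L4/L5 dorsal root ganglia, which house the cell bodies of sensory neurons, in adult male rats of the Sprague Dawley strain. All rats came from 2 genetic sub-lines, Low Pain (LP) and High Pain (HP). Within each sub-line, 1 group had the L4 and L5 spinal nerves ligated (SNL) and was sampled at 3 days, and 1 group had a sham operation that left the nerve intact. This gave 4 groups of 3 Affymetrix arrays: LP SNL, LP sham, HP SNL and HP sham. No transgene, deletion or drug is named for any group. The labels give no interval after the sham operation and do not say whether an array holds a single animal or a pool, so p-values rest on a spread that may be technical only. With 3 arrays in each group, precision is limited by their number.

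Endothelial cells line every vessel and hold it together through junctions, and pericytes and smooth muscle cells sit on their outer face. Kdr and Flt1 encode receptors of vascular endothelial growth factor, which drives sprouting and leakiness of vessels. Tie1 and Tek encode receptors of the angiopoietin pathway, which steadies vessels, and Pdgfrb encodes the receptor through which endothelial platelet-derived growth factor recruits pericytes. The dorsal root ganglion is densely supplied with capillaries, and these are more permeable than those of the peripheral nerve.

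Of the 9 genes, 5 had an upstream sequence in the RefSeq promoter table of the rat assembly GRCr8 (Tie1, Kdr, Flt1, Eng and Rgs5). The sequences of Tie1, Eng and Rgs5 are shown because these were the genes called after ligation in both sub-lines, and that of Kdr because its ligation difference passed in neither. Each is written 5′ to 3′ on the gene's own strand and covers the part of the 250 bases before the table's start site that lies outside the annotated gene. The Flt1 window lies inside its annotated gene and is not printed. Capitals mark letters of the ETS motif AGGAAG or CCGGAA, or of the SP1 motif GGGCGG, all of them lying on the opposite strand and so printed as their reverse complement.
Tie1, chr5:137305048-137305231, minus strand, 184 bases: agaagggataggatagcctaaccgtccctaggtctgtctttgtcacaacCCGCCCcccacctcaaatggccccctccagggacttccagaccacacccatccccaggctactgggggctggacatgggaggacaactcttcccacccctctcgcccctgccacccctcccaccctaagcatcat
Eng, chr3:36332029-36332189, plus strand, 161 bases: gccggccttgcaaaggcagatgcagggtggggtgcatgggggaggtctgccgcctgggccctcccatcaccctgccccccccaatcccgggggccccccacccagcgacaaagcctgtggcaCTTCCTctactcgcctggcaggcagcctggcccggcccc
Rgs5, chr13:84380827-84381076, plus strand, 250 bases: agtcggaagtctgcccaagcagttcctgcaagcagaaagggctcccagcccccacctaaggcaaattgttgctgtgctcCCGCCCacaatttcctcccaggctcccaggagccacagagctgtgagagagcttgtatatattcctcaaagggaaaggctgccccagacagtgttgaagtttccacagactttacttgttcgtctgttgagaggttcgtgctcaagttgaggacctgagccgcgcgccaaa
Kdr, chr14:32571813-32572030, plus strand, 218 bases: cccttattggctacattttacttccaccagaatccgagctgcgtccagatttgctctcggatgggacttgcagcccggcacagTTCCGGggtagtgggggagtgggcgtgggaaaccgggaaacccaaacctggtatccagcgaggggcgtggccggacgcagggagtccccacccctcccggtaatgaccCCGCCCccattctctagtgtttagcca

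The whole 250-base windows were searched on both strands for the ETS letters CCGGAA or AGGAAG or ACAGGAA (the last of these can overlap AGGAAG), the GATA letters AGATAA and TGATAA, and the SP1 letters GGGCGG. ETS letters were found in 4 of the 5 windows (Tie1, Kdr, Flt1 and Eng) and in 41.5% of all 27457 windows of the table. SP1 letters were found in 4 of the 5 (Tie1, Kdr, Flt1 and Rgs5) and in 32.1% of all windows. GATA letters were found in 0 of the 5 and in 16.8% of all windows. Tie1's AGGAAG, on the opposite strand 56 to 61 bases before the start site, and the plus-strand AGGAAG of Eng, 77 to 82 bases before it, lie in the part not printed above. These matches describe the letters only.

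Signals are the deposited linear array intensities, on which levels of different probe sets cannot be compared. The median signal of an array lay between 278.4 and 313.2, and the vascular genes differed in brightness. Tie1 lay between percentiles 44.0 and 67.0 of its array. Pecam1, between percentiles 22.9 and 45.2, and Pdgfrb, between 30.9 and 46.0, were below the median on every array. All 14 measured sensory neuron markers were above 0 on every array, but so were all but 3 of the 191076 values, so this does not show detection. Correlations of log2 signals were 0.941 to 0.965 between arrays of the same group and 0.922 to 0.961 between arrays of different groups. Differences are given on the scale of log2(signal + 1), which understates the change of dim genes, as SNL minus sham ± SE. Adjusted p-values come from 1 limma fit of all 12 arrays with Benjamini-Hochberg adjustment over all 10411 genes, and a gene was called below 0.05. In this bulk tissue, fewer cells of a type and less RNA per cell cannot be told apart, and the same holds for more of either.

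The first comparison asked how vascular genes differed between ligated and sham-operated ganglia in each sub-line. In LP, 3 of the 8 genes rose (Tie1, Eng and Rgs5) and 0 fell. In HP, 4 of the 8 rose (Tie1, Eng, Vwf and Rgs5) and 0 fell. Over all genes, 14.4% were called in LP (7.66% higher and 6.79% lower) and 13.6% in HP (7.02% higher and 6.61% lower). The median difference over the 8 genes was 0.57 in LP and 0.61 in HP, against 0.02 and -0.00 over all genes. All 3 SNL signals were above all 3 sham signals for 7 of the 8 genes in LP, where 16.5% of all genes were so separated, and for 4 of the 8 in HP, against 17.2% of all genes.

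**Figure D1:**
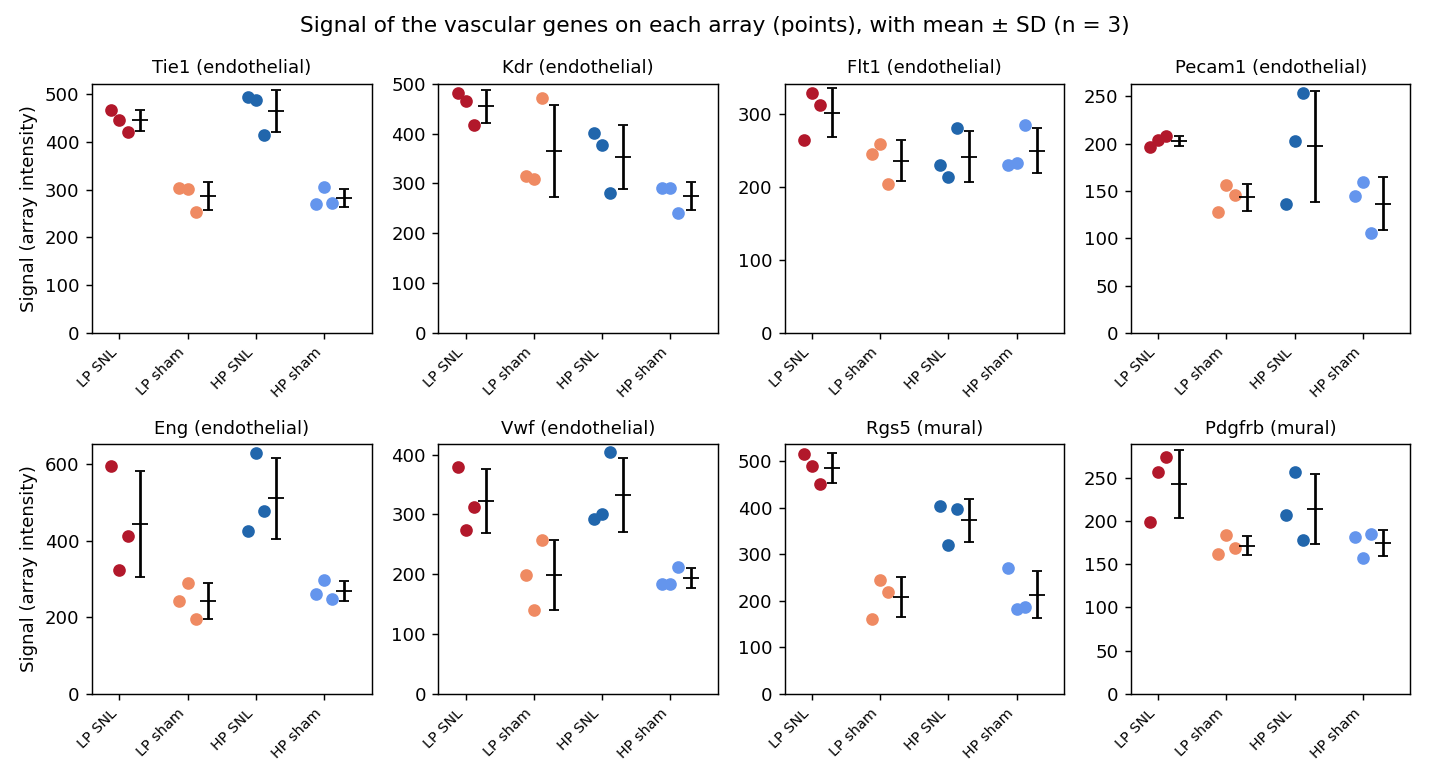
Array signal (linear intensity, each axis starting at 0) of the 8 vascular genes on each of the 12 arrays, with group mean ± SD (n = 3) to the right of each group's points. Tie1, Eng, Vwf and Rgs5 have every SNL point above every sham point in both sub-lines, while the groups of Kdr overlap in both. Flt1 is shown by its brightest probe set.

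Tie1, an orphan receptor tyrosine kinase of endothelium that modulates signalling by Tek, gave the steadiest endothelial change. Its signals were 466.5, 447.1 and 422 in LP SNL ganglia, against 304.3, 302.6 and 253.1 in LP sham ganglia. In HP they were 493.8, 488.1 and 414.7 after SNL, against 270.3, 304.9 and 273.1 after sham. Every SNL array was above every sham array of either sub-line, with no overlap. Tie1 rose by 0.64 ± 0.11 in LP (1.56-fold, adjusted p = 0.00398) and by 0.71 ± 0.11 in HP (1.64-fold, adjusted p = 0.00269). It passed in both sub-lines under all 26 alternative settings, at differences of 0.55 to 0.68 in LP and 0.66 to 0.80 in HP. Its SD within groups, 0.12 log2 units, was the smallest of the 8 genes.

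Eng encodes endoglin, a co-receptor for transforming growth factor beta and bone morphogenetic proteins on endothelium, also found on activated monocytes. Its signals were 596.3, 322.6 and 413.3 in LP SNL ganglia, against 242.5, 290.7 and 194.9 in LP sham ganglia. In HP they were 426.9, 630.8 and 477.1 after SNL, against 260.6, 297.6 and 249 after sham. The SNL arrays lay above the sham arrays in both sub-lines but varied widely, and the means were 444 ± 139 in LP SNL and 243 ± 47.9 in LP sham (SD, n = 3 each). Eng rose by 0.84 ± 0.24 in LP (1.79-fold, adjusted p = 0.0380) and by 0.91 ± 0.24 in HP (1.88-fold, adjusted p = 0.0302). The LP call held in 13 of 26 alternatives. It was lost under quantile normalization (adjusted p = 0.0593) and median centring (0.0604), with only the arrays compared (0.119), and without any 1 of 8 arrays (LP SNL replicates 1 and 3, LP sham replicates 1 and 3, HP SNL replicate 3, and each HP sham replicate), at differences of 0.61 to 0.87 and adjusted p of 0.0510 to 0.120. The HP call was lost without HP SNL replicate 2 or 3 or any HP sham replicate, at 0.75 to 0.98 and adjusted p of 0.0539 to 0.104.

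Vwf encodes von Willebrand factor, the clotting glycoprotein that endothelial cells store in Weibel-Palade bodies and that platelets also carry. Its signals were 379.5, 274.3 and 312.8 in LP SNL ganglia, against 198.3, 140.6 and 257.5 in LP sham ganglia. In HP they were 292, 300.7 and 403.9 after SNL, against 184.1, 183.3 and 212 after sham. The groups did not overlap in either sub-line, although the highest LP sham array came near the lowest LP SNL array. Vwf rose in HP by 0.77 ± 0.22 (1.70-fold, adjusted p = 0.0442). In LP its difference was 0.72 ± 0.22 and missed the threshold (adjusted p = 0.0530). Both values lay near the threshold: the HP call held in 11 of 26 alternatives and was lost without any 1 of 10 arrays (all except LP sham replicates 2 and 3), at adjusted p of up to 0.144, and in LP the gene passed in 8 of 26, including without LP sham replicate 3 (0.93) and without HP SNL replicate 3.

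Pecam1 encodes the junctional adhesion molecule of endothelium that leukocytes and platelets share. Its signals were 196.8, 203.9 and 208.1 in LP SNL ganglia, against 128.3, 155.9 and 145.3 in LP sham ganglia. In HP they were 135.8, 202.6 and 253.1 after SNL, against 145, 159.5 and 105.7 after sham. The LP groups were well apart and the LP SNL arrays were tightly grouped, while in HP the lowest SNL array lay within the sham range and the others above it. The differences were 0.50 ± 0.22 in LP (adjusted p = 0.166) and 0.50 ± 0.22 in HP (adjusted p = 0.174), neither past the threshold. Without HP SNL replicate 1, the lowest HP SNL array, the HP difference was 0.74 and passed (adjusted p = 0.0328).

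The receptors of vascular endothelial growth factor did not pass. Kdr, the main signalling receptor for VEGF-A, had signals of 481.4, 465.9 and 418 in LP SNL ganglia, against 315, 308.2 and 471.1 in LP sham ganglia. In HP its signals were 402.3, 377.6 and 280.7 after SNL, against 290.8, 290.1 and 241.5 after sham. The groups overlapped in both sub-lines, through LP sham replicate 3 in LP and HP SNL replicate 3 in HP. Its differences were 0.34 ± 0.19 in LP (adjusted p = 0.279) and 0.35 ± 0.19 in HP (adjusted p = 0.266), and it passed in 0 of 26 alternatives in either sub-line.

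Flt1, which binds VEGF-A tightly and whose soluble form acts as a decoy, was read by 3 probe sets. The brightest had signals of 264.3, 329 and 311.8 in LP SNL ganglia, against 245.9, 258.5 and 204.5 in LP sham ganglia. In HP it had 229.7, 214.4 and 281.1 after SNL, against 230.1, 233.6 and 285.3 after sham. The LP groups did not overlap and the HP groups lay on top of each other. Its differences were 0.35 ± 0.15 in LP (adjusted p = 0.153) and -0.05 ± 0.15 in HP (adjusted p = 0.879).

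The dimmer Flt1 probe sets ran the other way in LP. The middle one had signals of 142.7, 94.8 and 134.4 in LP SNL ganglia, against 146.5, 165.4 and 127.8 in LP sham ganglia, and 103.7, 112.3 and 63.6 in HP SNL ganglia, against 114.3, 135.4 and 109.7 in HP sham ganglia. The dimmest had 102.3, 103.8 and 82.6 in LP SNL ganglia, against 119.9, 113.4 and 139.6 in LP sham ganglia, and 62, 88.7 and 77.5 in HP SNL ganglia, against 87.8, 72.7 and 130.7 in HP sham ganglia. For the dimmest set the LP groups did not overlap, with SNL below sham, and for the middle set they did. When every probe set was its own test, which called 12.1% of 15866 probe sets in LP and 10.8% in HP, the differences of the middle set were -0.25 ± 0.23 in LP and -0.39 ± 0.23 in HP (adjusted p = 0.572 and 0.339). Those of the dimmest set were -0.37 ± 0.22 and -0.32 ± 0.22 (adjusted p = 0.344 and 0.420). With the mean of the 3 probe sets, the LP difference of Flt1 was -0.09. The direction of Flt1 in LP thus depends on the probe set. The parts of the transcript that these probe sets read were not analysed here.

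Among the mural genes, Rgs5, a regulator of G protein signalling that marks pericytes, had the largest ligation difference of the 8 genes in LP. Its signals were 515.4, 490.4 and 450.5 in LP SNL ganglia, against 160.9, 244.2 and 218.2 in LP sham ganglia. In HP they were 403.2, 319.2 and 396 after SNL, against 270.7, 182 and 185.4 after sham. Neither sub-line showed overlap between SNL and sham. Rgs5 rose by 1.24 ± 0.19 in LP (2.36-fold, adjusted p = 0.00222) and by 0.82 ± 0.19 in HP (1.77-fold, adjusted p = 0.0193). The LP call held in all 26 alternatives, at 1.07 to 1.37. The HP call was lost without HP SNL replicate 1 or 3 or HP sham replicate 2 or 3, at 0.72 to 0.78 and adjusted p of 0.0617 to 0.0734.

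Pdgfrb, the receptor for platelet-derived growth factor B, is carried by pericytes and by fibroblasts. Its signals were 199.1, 256.9 and 274.4 in LP SNL ganglia, against 162.4, 183.7 and 168.7 in LP sham ganglia. In HP they were 207.2, 257.7 and 178.1 after SNL, against 181.7, 157.1 and 184.9 after sham. The LP groups did not overlap, and in HP the lowest SNL array lay within the sham range. The differences were 0.49 ± 0.16 in LP (adjusted p = 0.0670) and 0.28 ± 0.16 in HP (adjusted p = 0.297). The LP difference passed without LP SNL replicate 1 (0.63, adjusted p = 0.0364) and without HP SNL replicate 2 (0.49, adjusted p = 0.0460).

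**Figure D2:**
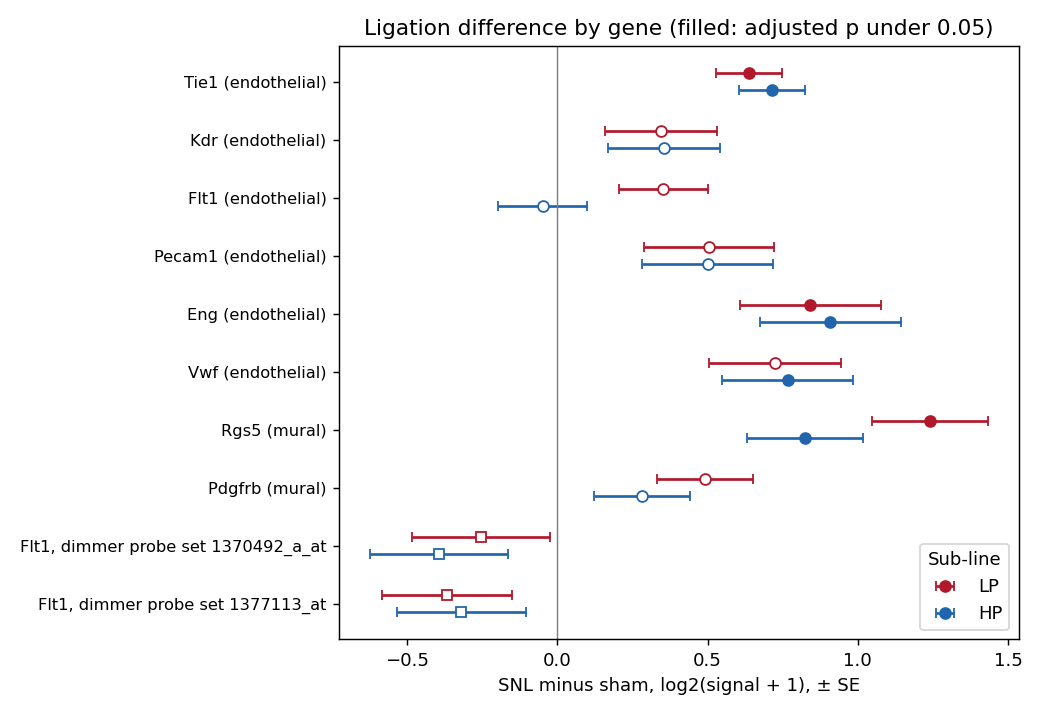
SNL minus sham on the log2(signal + 1) scale, ± SE, for the 8 vascular genes (circles) and the dimmer Flt1 probe sets (squares), in LP (upper, red) and HP (lower, blue). Filled symbols have an adjusted p under 0.05: Tie1, Eng and Rgs5 in LP, and Tie1, Eng, Vwf and Rgs5 in HP. The dimmer Flt1 sets lie left of 0 in both sub-lines.

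The count of called genes in HP depended on single arrays. It was 2 without HP SNL replicate 2 or HP sham replicate 1, and 1 (Tie1) without HP SNL replicate 3, HP sham replicate 2 or HP sham replicate 3. Calls over all 10411 genes fell too, from 1419 to 945 without HP SNL replicate 2 and to 846 without HP sham replicate 1. They numbered 875 without HP SNL replicate 3 and 866 without HP sham replicate 3. Without HP sham replicate 2 they moved by no more than 1.5 times. The ratio of the 3' to the 5' probe set of beta-actin, a measure of RNA integrity, was 1.12 to 1.34 on HP SNL arrays and 1.48 to 1.85 on HP sham arrays, with no overlap, so that the ratio and the surgery cannot be told apart in HP. In LP it was 1.11 to 1.13 after SNL and 0.993 to 1.88 after sham. The GAPDH ratio was 1.07 to 1.24 in HP SNL and 1.09 to 1.17 in HP sham. With the actin ratio as a covariate, 1 of the 8 genes was called in HP, Tie1, and 2 in LP, Tie1 and Rgs5. Over all genes, 816 were called in HP with this covariate, against 1419 without it. The differences that lost their call under this covariate were 0.99 for Eng (0.91 without it), 0.68 for Vwf (0.77) and 0.63 for Rgs5 (0.82) in HP, and 0.88 for Eng (0.84) in LP, so that of Eng was no smaller while that of Rgs5 was the most reduced. Averaged over the sub-lines, 6 of the 8 genes rose (Tie1 0.68, Pecam1 0.50, Eng 0.88, Vwf 0.75, Rgs5 1.03 and Pdgfrb 0.39), where 24.8% of all genes were called, and Kdr (0.35, adjusted p = 0.0845) and Flt1 (0.15, adjusted p = 0.341) did not pass. This average uses the same arrays as the comparisons within sub-lines.

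The next comparison asked whether the sub-lines differed. In the interaction, the LP ligation difference minus the HP one, 0 of the 8 genes passed and 0% of all genes did by limma, although 490 of all 10411 genes and 0 of the 8 had an unadjusted p under 0.05. The interaction was 0.42 ± 0.27 for Rgs5 (95% interval -0.19 to 1.02) and 0.40 ± 0.21 for Flt1 (-0.06 to 0.87, unadjusted p = 0.0832, adjusted p = 0.988), the widest gaps among the 8 genes. The Flt1 value is that of its brightest probe set. As their own limma tests, its middle and dimmest sets had 0.14 ± 0.32 and -0.05 ± 0.30 (adjusted p = 0.996 and 0.997). For Tie1 it was -0.08 ± 0.16 (-0.43 to 0.27), for Kdr -0.01 ± 0.26 (-0.60 to 0.58) and for Vwf -0.04 ± 0.31 (-0.73 to 0.65). For Pecam1, Eng and Pdgfrb the intervals were -0.68 to 0.69, -0.81 to 0.67 and -0.29 to 0.71. These intervals leave room for differences between sub-lines as large as several of the ligation differences themselves.

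LP against HP under the same surgery gave no calls among the 8 genes. After SNL, 0 of 8 passed and 0 had an unadjusted p under 0.05, where 0.173% of all genes were called. The differences with the smallest p were Flt1 0.32 ± 0.15 (adjusted p = 0.481), Kdr 0.38 ± 0.19 (adjusted p = 0.508) and Rgs5 0.39 ± 0.19 (adjusted p = 0.510). After sham, 0 of 8 passed and 0 had an unadjusted p under 0.05, where 0.00961% of all genes were called. With each gene read by its brightest probe set, Kdr was the gene farthest from 0 (0.39 ± 0.19, adjusted p = 0.550), with means of 365 ± 92.2 in LP sham and 274 ± 28.3 in HP sham (SD, n = 3 each), and LP sham replicate 3 held the highest signal. The other 7 genes, read in the same way, had sham differences between -0.16 and 0.08. As their own limma tests, the middle and dimmest Flt1 sets had sham differences of 0.29 ± 0.23 and 0.39 ± 0.22 (adjusted p = 0.748 and 0.619).

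In the order of levels, the SNL groups held the top places and the sham groups the bottom places for Tie1, Pecam1, Eng, Vwf, Rgs5 and Pdgfrb. For Tie1 the order was HP SNL (466 ± 44.1), LP SNL (445 ± 22.3), LP sham (287 ± 29.1) and HP sham (283 ± 19.2), and neighbours within the same surgery lay within their SD. For Rgs5 it was LP SNL (485 ± 32.7), HP SNL (373 ± 46.6), HP sham (213 ± 50.3) and LP sham (208 ± 42.6). The difference between its SNL groups did not pass (adjusted p = 0.510). For Eng it was HP SNL (512 ± 106), LP SNL (444 ± 139), HP sham (269 ± 25.4) and LP sham (243 ± 47.9), and for Vwf HP SNL (332 ± 62.2), LP SNL (322 ± 53.2), LP sham (199 ± 58.5) and HP sham (193 ± 16.3), with neighbours of the same surgery within their SD. For Kdr the order was LP SNL (455 ± 33.1), LP sham (365 ± 92.2), HP SNL (354 ± 64.3) and HP sham (274 ± 28.3), so that the LP sham and HP SNL means nearly coincided. For the brightest Flt1 probe set, LP SNL (302 ± 33.5) stood above HP sham (249.7 ± 30.9), HP SNL (242 ± 34.9) and LP sham (236 ± 28.3). The last 3 lay within their SD of each other. Both dimmer Flt1 sets had their highest mean in LP sham and their lowest in HP SNL. These means were 147 ± 18.8 and 93.2 ± 26.0 for the middle set, and 124 ± 13.6 and 76.1 ± 13.4 for the dimmest (SD, n = 3 throughout).

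Endothelial genes were then set against mural genes. In LP the 6 endothelial genes had a median ligation difference of 0.57 (0.34 to 0.84), and the 2 mural genes had 0.49 and 1.24. In HP the endothelial median was 0.61 (-0.05 to 0.91), and the mural genes had 0.28 and 0.82. Both classes therefore held genes that rose and genes that did not pass, and their ranges overlapped. For each array, the mean log2 value of the mural genes was subtracted from that of the endothelial genes, and only the change of this gap between groups was read. The gap was 0.21, -0.12 and -0.06 in LP SNL, against 0.50, 0.13 and 0.30 in LP sham, and 0.07, 0.24 and 0.36 in HP SNL, against 0.01, 0.49 and 0.23 in HP sham. The groups overlapped in both sub-lines. The gap changed by -0.30 in LP (0.01 ± 0.18 in SNL and 0.31 ± 0.19 in sham) and by -0.02 in HP (0.22 ± 0.15 in SNL and 0.24 ± 0.24 in sham; SD, n = 3 each). Leaving out 1 array moved the LP change between -0.40 and -0.20, and the HP change between -0.14 and 0.10. No test was made of this score, whose mural side rests on 2 genes.

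**Figure D3:**
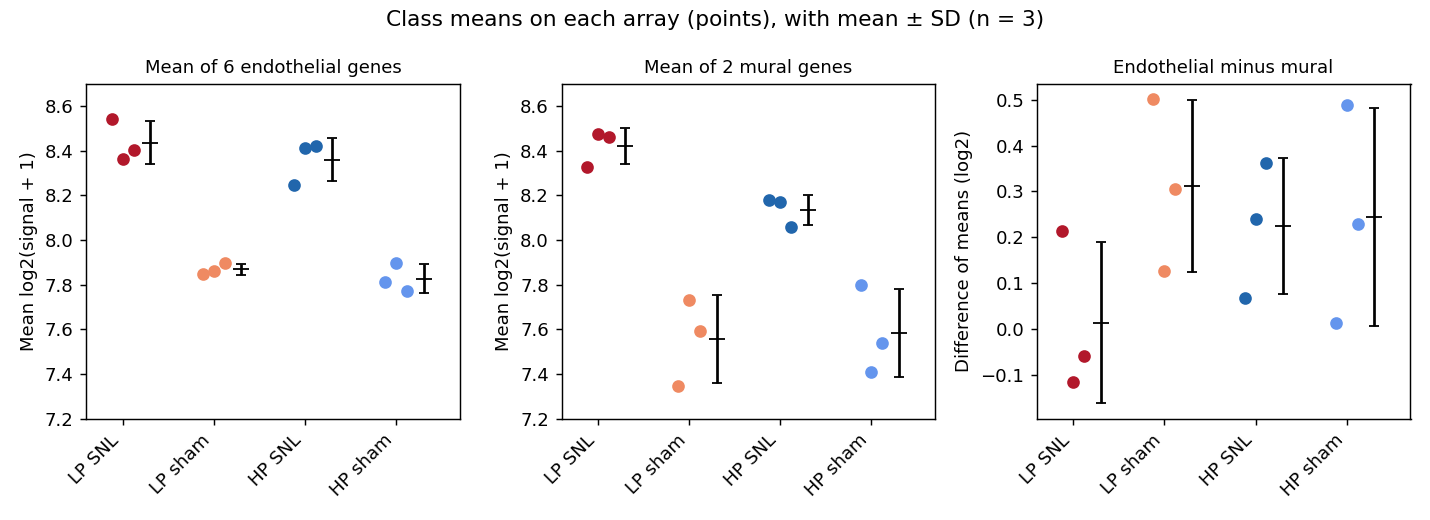
Mean log2(signal + 1) of the 6 endothelial genes (left) and the 2 mural genes (middle), and the endothelial minus mural difference (right), on each of the 12 arrays with mean ± SD (n = 3). The axes do not start at 0. Both class means are higher in SNL than in sham within each sub-line, while the difference overlaps between SNL and sham.

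The genes whose profiles over the 12 arrays were nearest to the endothelial mean, by the root mean square difference of centred log2 profiles among 5205 brighter genes, were Srgn (0.0596), Fuca1 (0.0623), Cttn (0.0648), Ifitm2 (0.0685) and Arhgdib (0.0756), where the median gene lay at 0.339. Those nearest to the mural mean were Klf6 (0.124), Ano6 (0.141), Lpcat3 (0.148), Rcan1 (0.148) and Sidt2 (0.152), with a median gene at 0.432. These distances are descriptions over arrays that share the ligation contrast.

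Wider lists placed the 8 genes among other vascular genes. Of 28 other endothelial markers measured, 9 rose and 1 fell in LP (32.1% and 3.57%, against 7.66% and 6.79% of all genes). In HP 7 rose and 1 fell (25% and 3.57%, against 7.02% and 6.61%). Their median differences were 0.29 in LP and 0.40 in HP. Mmrn2, an endothelial matrix glycoprotein, rose by 0.94 ± 0.20 in LP and 0.86 ± 0.20 in HP (adjusted p = 0.0106 and 0.0183). Icam2, an endothelial ligand of leukocyte integrins, rose by 0.64 ± 0.17 and 0.89 ± 0.17 (adjusted p = 0.0355 and 0.00901), and Slc2a1, the glucose transporter of barrier endothelium, by 0.40 ± 0.09 and 0.58 ± 0.09 (adjusted p = 0.0177 and 0.00313). The gene that fell was Tspan8, a tetraspanin, at -0.95 ± 0.10 in LP and -0.87 ± 0.10 in HP, with mean signals of 2077 in LP SNL, 4023 in LP sham, 2318 in HP SNL and 4228 in HP sham. Which cells of the ganglion carry Tspan8 was not tested. The count of 9 was 4 or 5 without LP SNL replicate 1, 2 or 3 or LP sham replicate 1 or 2, and the count of 7 was 2 without HP SNL replicate 3 or HP sham replicate 3 and 4 without HP SNL replicate 2 or HP sham replicate 1.

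Well-known endothelial genes among those that did not pass were Cldn5, Emcn, Plvap, Erg, Klf2 and Nos3. The tight junction gene Cldn5 had differences of 0.31 ± 0.11 in LP and 0.27 ± 0.11 in HP (adjusted p = 0.0831 and 0.134), and the sialomucin gene Emcn 0.07 ± 0.11 and 0.18 ± 0.11 (adjusted p = 0.745 and 0.362). Plvap, of fenestrated capillaries, had 0.10 ± 0.51 and 0.04 ± 0.51 at signals of 78.7 and 74.2 in LP SNL and LP sham, too wide an error to read. Larger differences that also missed were those of Erg (0.80 ± 0.52 and 1.72 ± 0.52, adjusted p = 0.371 and 0.0541) and Klf2 (0.62 ± 0.20 and 0.55 ± 0.20, adjusted p = 0.0598 and 0.0994). Nos3 had 0.74 ± 0.47 and 0.56 ± 0.47 (adjusted p = 0.370 and 0.508). Of the 28 markers, 23 had a difference above 0 in LP and 26 in HP.

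Of 22 other pericyte and smooth muscle markers, 5 rose in LP (22.7%, against 7.66% of all genes) and 4 in HP (18.2%, against 7.02%). In either sub-line 0 fell, and the medians were 0.20 in LP and 0.19 in HP. Tagln, an actin-binding protein of smooth muscle, rose by 1.30 ± 0.29 in LP and 1.01 ± 0.29 in HP (adjusted p = 0.0144 and 0.0471). The myosin light chain gene Myl9 rose by 0.58 ± 0.12 and 0.60 ± 0.12 (adjusted p = 0.00971 and 0.00991). Smooth muscle actin, Acta2, rose in LP (0.44 ± 0.12, adjusted p = 0.0353) and had 0.06 ± 0.12 in HP (adjusted p = 0.827), with an interaction of 0.39 ± 0.17 (adjusted p = 0.988). Mcam, an adhesion molecule of pericytes and endothelium, rose in HP (0.35 ± 0.09, adjusted p = 0.0236) and had 0.14 ± 0.09 in LP (adjusted p = 0.343). Also called were Anpep (0.53 ± 0.15, adjusted p = 0.0441) and Abcc9 (0.43 ± 0.12, adjusted p = 0.0447) in LP, and Des (0.93 ± 0.27, adjusted p = 0.0498) in HP. In the other sub-line these genes had 0.51 ± 0.15, 0.25 ± 0.12 and 0.75 ± 0.27 (adjusted p = 0.0555, 0.236 and 0.101). Smooth muscle myosin, Myh11, had 0.12 ± 0.16 and 0.10 ± 0.16, the mural receptor Notch3 had 0.02 ± 0.17 and 0.04 ± 0.17, and the pericyte proteoglycan Cspg4 had 0.26 ± 0.44 and -0.47 ± 0.44, none past the threshold. Leaving out 1 array gave counts of 1 to 5 in LP and 1 to 4 in HP, and any of 8 arrays in LP and 9 in HP moved the count by more than 1.5 times. Over all alternatives the counts were 0 to 6 in each sub-line, with 2 in LP under a replicate block.

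Vascular ligands were called at shares near those of all genes. The list is wider than the ligands of Kdr, Flt1, Tie1, Tek, Eng and Pdgfrb, and its members Pdgfb and Angpt1 were not measured. Of 25 vascular ligands, 3 rose and 2 fell in LP (12% and 8%, against 7.66% and 6.79% of all genes), and 1 rose and 1 fell in HP (4% and 4%, against 7.02% and 6.61%), with medians of 0.03 and -0.13. Without 1 array the ligands that fell numbered 1 to 3 in LP and 0 to 1 in HP, and those that rose 2 to 4 in LP and 1 to 2 in HP. Vegfa, the ligand of Kdr and Flt1, fell in LP by 0.77 ± 0.12 on the log2 scale (adjusted p = 0.00201), with mean signals of 402 in LP SNL and 685 in LP sham. In HP its difference was -0.19 ± 0.12 (adjusted p = 0.358), with means of 425 in HP SNL and 482 in HP sham, and the interaction was -0.58 ± 0.17 (adjusted p = 0.988). Tgfb1, a ligand whose receptor complex includes Eng, rose by 3.19 ± 0.41 and 2.58 ± 0.41 (adjusted p = 0.000762 and 0.00288) on dim sham signals of 23.1 in LP and 35.8 in HP. Angptl4, an angiopoietin-like factor, and Fgf2, a fibroblast growth factor, rose in LP (0.67 ± 0.12 and 0.67 ± 0.17) and had 0.24 ± 0.12 and 0.33 ± 0.17 in HP (adjusted p = 0.222 and 0.255).

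Of 18 other vascular receptors, 0 fell, with medians of 0.12 in LP and 0.22 in HP. In each sub-line 3 rose (16.7%, against 7.66% of all genes in LP and 7.02% in HP). These were Tgfbr1, a type I receptor for transforming growth factor beta (1.05 ± 0.17 in LP and 0.88 ± 0.17 in HP), Pdgfra, the receptor of fibroblasts related to Pdgfrb (1.04 ± 0.20 and 0.77 ± 0.20), and Tgfbr3, a co-receptor like Eng (0.31 ± 0.09 and 0.43 ± 0.09). Of 17 tip cell and sprouting genes, 0 fell, and 5 rose in LP (29.4%) and 4 in HP (23.5%). They included the basement membrane genes Lama4 (0.75 ± 0.10 and 0.76 ± 0.10), Nid2 (0.57 ± 0.11 and 0.60 ± 0.11) and Col4a1 (0.45 ± 0.13 and 0.62 ± 0.13), and the urokinase receptor Plaur (0.75 ± 0.14 and 0.84 ± 0.14). The LP count of sprouting genes was 3 without LP SNL replicate 1 or 3, LP sham replicate 1 or 2, or HP sham replicate 3.

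Of 7 adhesion molecules of activated endothelium, 1 rose in LP (14.3%, against 7.66% of all genes) and 2 in HP (28.6%, against 7.02%). Icam1 rose in both sub-lines (1.36 ± 0.36 in LP and 1.23 ± 0.36 in HP, adjusted p = 0.0299 and 0.0475) and Cd44 in HP (0.85 ± 0.14, with 0.39 ± 0.14 and an adjusted p of 0.103 in LP). Leaving out 1 array gave counts of 0 to 1 in LP and 1 to 2 in HP. Vcam1 had 0.53 ± 0.16 in LP (adjusted p = 0.0538) and -0.00 ± 0.16 in HP (adjusted p = 0.990). Of 6 lymphatic markers, 2 rose in each sub-line (33.3%), with counts of 1 to 2 in LP and 0 to 2 in HP when 1 array was left out. The matrix glycoprotein gene Reln rose in both (0.67 ± 0.13 and 0.51 ± 0.13), Lyve1, which macrophages also express, rose in LP (2.35 ± 0.57) on a dim sham signal of 29.5 and had 1.77 ± 0.57 in HP (adjusted p = 0.0689), and the podoplanin gene Pdpn rose in HP (0.51 ± 0.15) and had 0.29 ± 0.15 in LP (adjusted p = 0.239). The other measured lymphatic markers, Prox1, Flt4 and Mmrn1, passed in neither sub-line, and Flt4 was dim, with a mean signal of 21.9. Of 15 hypoxia response genes, 3 rose and 2 fell in LP (20% and 13.3%, against 7.66% and 6.79% of all genes). In HP 3 rose and 1 fell (20% and 6.67%, against 7.02% and 6.61%). Slc2a1, also counted among the endothelial markers, rose in both. The 1 gene that fell in HP was Bnip3, and the count of hypoxia genes that fell there was 0 to 2 when 1 array was left out (6 arrays moved it by more than 1.5 times). Epas1, the hypoxia factor of endothelium, rose by 0.72 ± 0.09 and 0.80 ± 0.09 and Hif1a by 0.71 ± 0.11 and 0.65 ± 0.11, while Bnip3, a mitophagy gene, fell by 0.70 ± 0.11 and 0.43 ± 0.11 on the log2 scale.

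Markers of other cell types also changed after ligation, in directions that differed between lists. Their part in the vascular differences was not tested. Of 14 macrophage and monocyte markers, 10 rose in each sub-line (71.4%, against 7.66% of all genes in LP and 7.02% in HP) and 0 fell. Their summed signal was 14343 to 16924 in LP SNL, 6908 to 7293 in LP sham, 15668 to 17816 in HP SNL and 7661 to 9103 in HP sham. C1qb, a complement component, rose by 2.24 ± 0.17 in LP and 2.02 ± 0.17 in HP. Of 15 fibroblast markers, which include Pdgfra, 8 rose and 1 fell in LP (53.3% and 6.67%) and 6 rose and 0 fell in HP (40% and 0%). Their summed signal was 32497 to 41141 in LP SNL, 26832 to 29586 in LP sham, 36291 to 39308 in HP SNL and 27629 to 29555 in HP sham. Without 1 array the fibroblast count was 4 to 8 in LP (5 without LP SNL replicate 1 and 4 without LP SNL replicate 3) and 2 to 7 in HP (3 without HP SNL replicate 2, and 2 without HP SNL replicate 3, HP sham replicate 1 or HP sham replicate 3). Of 20 cell cycle genes, 12 rose in LP (60%) and 7 in HP (35%), and 0 fell.

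Of 3 platelet markers, 0 passed in either sub-line, and the summed signals of 1284 to 2056 in LP SNL and 1108 to 1634 in LP sham overlapped, as did 1587 to 2117 in HP SNL and 1191 to 1720 in HP sham. Of 3 red blood cell markers, 0 passed in LP and 1 rose in HP (33.3%, against 7.02% of all genes). This was the globin gene Hbb (0.54 ± 0.15, adjusted p = 0.0409), whose LP difference was 0.07 ± 0.15 (adjusted p = 0.818). That HP count was 0 to 2 when 1 array was left out, and any of 8 arrays moved it by more than 1.5 times. Of 14 sensory neuron markers, 7 fell in LP (50%, against 6.79% of all genes) and 6 in HP (42.9%, against 6.61%), and 0 rose. Of 11 satellite glia and Schwann cell markers, 3 rose (27.3%) and 2 fell (18.2%) in each sub-line. None of the measured genes of these lists was at 0 on any array, although only 3 of all 191076 values were.

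**Figure D4:**
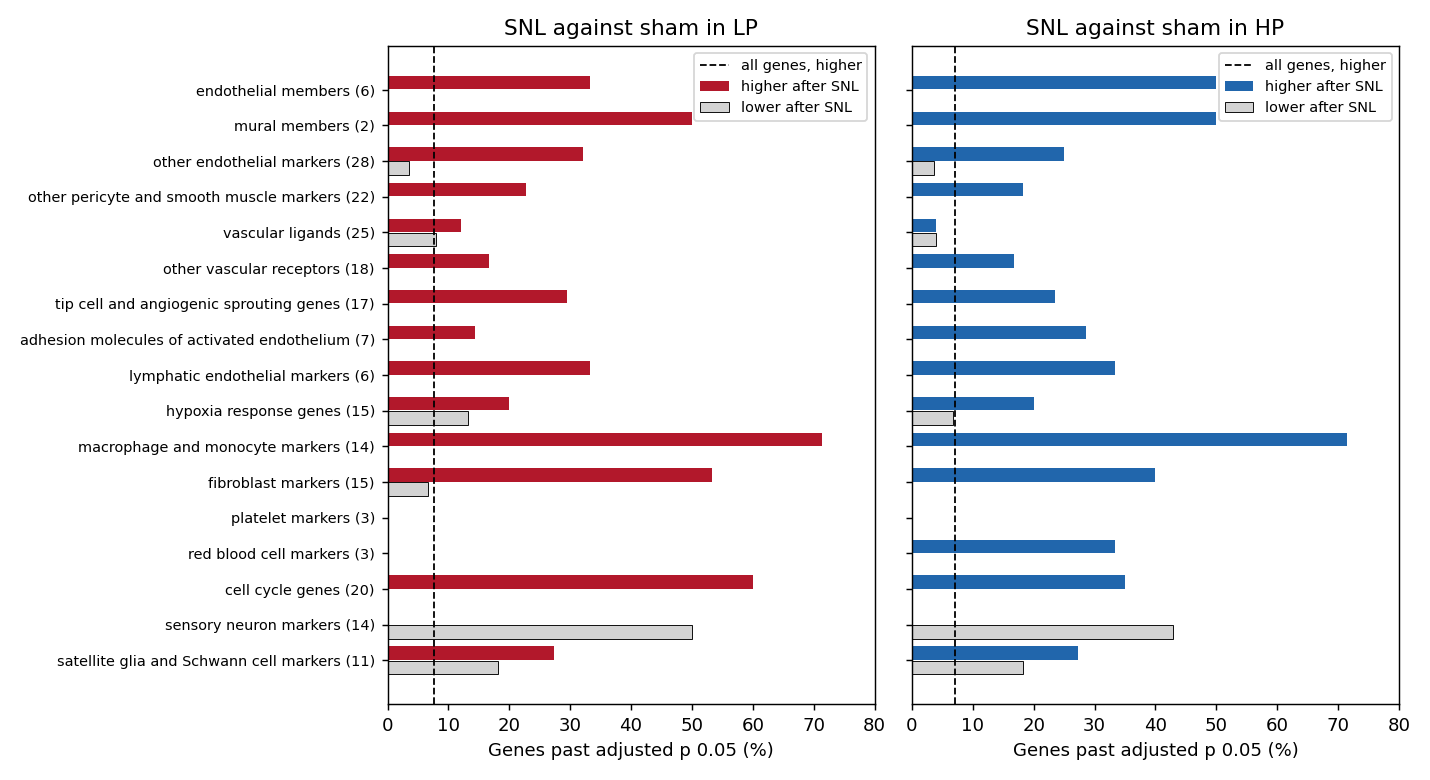
Share of the measured genes of each list (number in brackets) called higher or lower after SNL, in LP (left) and HP (right), with the share of all genes called higher as a dashed line (7.66% in LP and 7.02% in HP). The macrophage list has the highest share in both sub-lines (71.4%), and Tie1, Kdr, Flt1, Pecam1, Eng and Vwf together (endothelial members) have 33.3% in LP and 50% in HP.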

How the data were processed

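Total RNA of 12 dorsal root ganglion samples was measured on Affymetrix arrays, and groups and replicate numbers were taken from the sample titles. The authors deposited 1 linear intensity for each probe set of each array. RMA, unversioned, is named alone per the submitters' processing notes, but every array has a 2%-trimmed mean of about 500, so the steps the authors ran are not settled. Since 109 of 191076 values were below 1, values were taken as log2(value + 1) and not normalized again.

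The 57 controls were left out of the 15866 probe sets tested. Probe sets were named by platform annotation updated through RefSeq (GRCr8): 12748 matched by gene identifier and 2 by accession, 33 kept the platform's symbol, 312 had several symbols and 2771 none. The brightest probe set stood for each of 10411 genes, 1868 of which had several. One limma fit of 4 group means (limma 3.58.1, statmod 1.5.0, R 4.3.3) gave 6 contrasts, two-sided, with 8 residual and 2.05 prior degrees of freedom, Benjamini-Hochberg adjustment over all genes and a threshold of 0.05. The fit was tested on simulated data.

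The vascular genes and gene lists were chosen with earlier results of these data known. Named were all 9 genes of the set, up to 4 called genes with the smallest p of each wider list, and the 5 genes nearest to each class profile. Cldn5, Emcn, Plvap, Erg, Klf2, Nos3, Anpep, Abcc9, Des, Myh11, Notch3, Cspg4, Vcam1, Prox1, Flt4 and Mmrn1 were added after their values were seen. Deviations from group means correlated at -0.17 to 0.11 between same-numbered samples of different groups (18 pairs). Between differently numbered samples they correlated at -0.17 to 0.21 (36 pairs). The main fit used no pairing by replicate number, although these correlations cannot exclude one. Alternatives were a replicate block, a filter dropping the dimmest 25% of genes, median centring or quantile normalization of arrays, eBayes with a trend or robust, weighted arrays, fits of only the 2 groups compared, each probe set as its own gene or a gene's probe sets averaged, pseudocounts of 16 and 32, covariates of the actin and GAPDH 3' to 5' ratios (GAPDH chosen after seeing the data), and leaving out each array.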

Additional observations from a re-analysis of the deposited data

How the results depend on the processing

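The count of the 8 vascular genes called after ligation in LP was 3, and it was 5 without the dimmest 25% of genes (Tie1, Eng, Vwf, Rgs5 and Pdgfrb). In HP it was 4, and it was 1 with the covariate of the actin ratio (Tie1), where the differences of Eng, Vwf and Rgs5 were 0.99, 0.68 and 0.63, against 0.91, 0.77 and 0.82. The cause was not tested for either. Leaving out 1 array gave 2 to 4 in LP, 1 to 4 in HP, 4 to 6 for the average over the sub-lines, and 0 to 0 for the interaction and both comparisons of LP against HP. The sign of Flt1 turned in LP with the mean of its probe sets (-0.090). In HP it turned without HP SNL replicate 2 (0.032) and without HP sham replicate 3, within a range of -0.16 to 0.050 over the arrays left out. With the replicate block, 3 genes were called in LP (Tie1, Vwf and Rgs5), 3 in HP and 5 in the average. Eng lost its call under the block in both sub-lines (adjusted p = 0.0637 in LP and 0.0523 in HP), and its LP value for Vwf was 0.0322. In HP the counts of ligands that fell, hypoxia genes that fell and red blood cell markers that rose were each 0 under the block, against 1, and in LP 1 ligand fell, against 2. Under the block, pericyte and smooth muscle markers that rose numbered 2 in LP, against 5, and lymphatic markers 0 in HP, against 2. Adhesion molecules that rose numbered 0 in LP and 1 in HP, against 1 and 2, and fibroblast markers 3 in HP, against 6. All genes called numbered 1251 in LP and 1115 in HP under the block. Over all alternatives they numbered 814 to 1766 in LP (814 with only the arrays compared) and 816 to 1693 in HP (816 with the actin covariate and 846 to 945 without HP sham replicate 1 or 3 or HP SNL replicate 2 or 3), against 1504 and 1419. They numbered 0 to 2 in the interaction, 1 to 53 for LP against HP after SNL and 0 to 6 after sham, against 0, 18 and 1. Median centring put the share of calls that were higher at 43.9% in LP, against 53.0%, and at 44.9% in HP, against 51.5%. No scaling moved the median of all genes by over 0.1. Tie1 and Rgs5 kept their direction and call in LP under all 26 alternatives, as did Tie1 in HP. Dim probe sets such as the middle and dimmest of Flt1, between percentiles 15.4 and 32.7 of their arrays, limit what can be read of that gene.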
